A study of Mus musculus with 9 samples.

Results

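The keratin family was examined in luminal epithelial cells of the adult mouse mammary gland. Its members were all genes of the deposited count table whose mouse symbol is Krt followed by a digit, leaving out the keratin-associated Krtap genes and symbols ending in ps. By this rule 54 of the 27179 genes of the table were members, 28 of type I and 26 of type II. RNA was sequenced from 9 libraries, 3 for each of 3 populations sorted by flow cytometry after lineage-positive cells had been removed. The ML libraries were CD14 negative, and their sample labels call them PR-cre/YFP positive, whereas the design text of the series calls them YFP negative. The HR+ LP libraries were CD14 positive and PR-cre/YFP positive, and the HR- LP libraries were CD14 positive and PR-cre/YFP negative. All 3 populations therefore came from tissue carrying a YFP reporter switched on by Cre recombinase under the control of the progesterone receptor gene, a label that can outlast the expression of that gene in a cell. The labels give no age beyond adult, and do not say how many animals a library holds or whether libraries with the same number share an animal or day. P-values therefore measure the spread between these libraries, which may be technical.

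Keratins are the intermediate filament proteins of epithelial cells. A filament is built from pairs of 1 type I (acidic) and 1 type II (basic) chain, so each cell needs members of both types. Simple epithelia such as the mammary luminal layer rely on Krt8 and Krt18 with Krt19 and Krt7, basal and myoepithelial cells on Krt5 and Krt14, and other members serve stratified epithelia, activated epidermis, or hair and nail.

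Depth ranged from 27219103 to 108119756 counts per library. Cd14 was lowest in the CD14-negative population, at 24.7 ± 6.04, 324 ± 35.2 and 1114 ± 103 CPM in ML, HR+ LP and HR- LP. CPM are counts set against the total of their own library, scaled by TMM factors. Pgr, the progesterone receptor gene, was not itself sorted on. It averaged 435 ± 144, 279 ± 65.8 and 9.42 ± 5.54 CPM in the same order (SD, n = 3 each). These Pgr levels went with the PR-cre/YFP state in the sample labels, on which the design text differs for ML. On the second principal component, which held 10.1% of the variance, HR- LP replicate 3 stood at -91.6, apart from replicates 1 and 2 at 15.8 and 39.5. Keratin calls that change without it are given beside their values. These are bulk libraries, so fewer cells with a transcript and less of it per cell cannot be told apart, and a middle level may be that of all cells or of a mixture.

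Counts were found for 46 of the 54 keratins, and 28 passed the filter on low counts and were tested. The other 26 stayed at or below 0.573 CPM in every library, and 18 of these had some count. Among the tested members 13 averaged over 10 CPM in at least 1 population, while 15 stayed below that level and 6 below 1 CPM. None of the 8 inner root sheath keratins passed the filter. Neither did Krt20 of the simple epithelial group, nor Krt222, which has no role assigned here.

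The LP populations differ in the PR-cre/YFP label, and their comparison asks how keratin use differs between CD14-positive cells with and without it. They also differed in the level of Cd14, at 324 ± 35.2 CPM in HR+ LP and 1114 ± 103 CPM in HR- LP (SD, n = 3 each). Type II keratins other than Krt8 made up most of the differences. Between these populations, 14 of the 28 tested keratins differed at an adjusted p below 0.05, 10 of them higher and 4 lower in HR+ LP, where 29.9% of all 15910 tested genes differed, 17.2% higher and 12.8% lower. Of the 16 tested type II keratins 8 were higher and 1 was lower, and of the 12 tested type I keratins 2 were higher and 3 lower. The median log2 fold change was 2.41 for type II and 0.12 for type I keratins, and 0.01 over all tested genes. In ML against HR- LP, 16 of 28 differed, 12 higher and 4 lower, where 44.6% of all genes did, 23.3% higher and 21.3% lower. There 10 type II keratins were higher and 1 lower (median 2.94), and 2 type I keratins were higher and 3 lower (median 0.04). In ML against HR+ LP, 2 of 28 keratins differed, both lower, where 6.79% of all genes did, 0.0943% higher and 6.7% lower. In this comparison 4 keratins had an unadjusted p below 0.05, and the share of all genes at that threshold was not computed. No keratin was called higher in ML there by DESeq2 or by edgeR without a replicate block, limma voom called 1 (Krt6b), and edgeR with a replicate block called 1 from all 9 libraries and 6 from the libraries of these populations alone, which are named with the block. Members at or near 0 in HR- LP, such as Krt77 and Krt36, could be called against HR- LP only higher. Krt83, Krt6b and Krt78, with means of 0.022, 0.456 and 0.467 CPM in HR- LP, could hardly be called lower. The type II medians include Krt77, Krt83, Krt6b and Krt78, and the type II calls include those of them that were called. Neither was computed without these members. The first 2 comparisons share the HR- LP libraries.

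**Figure D1:**
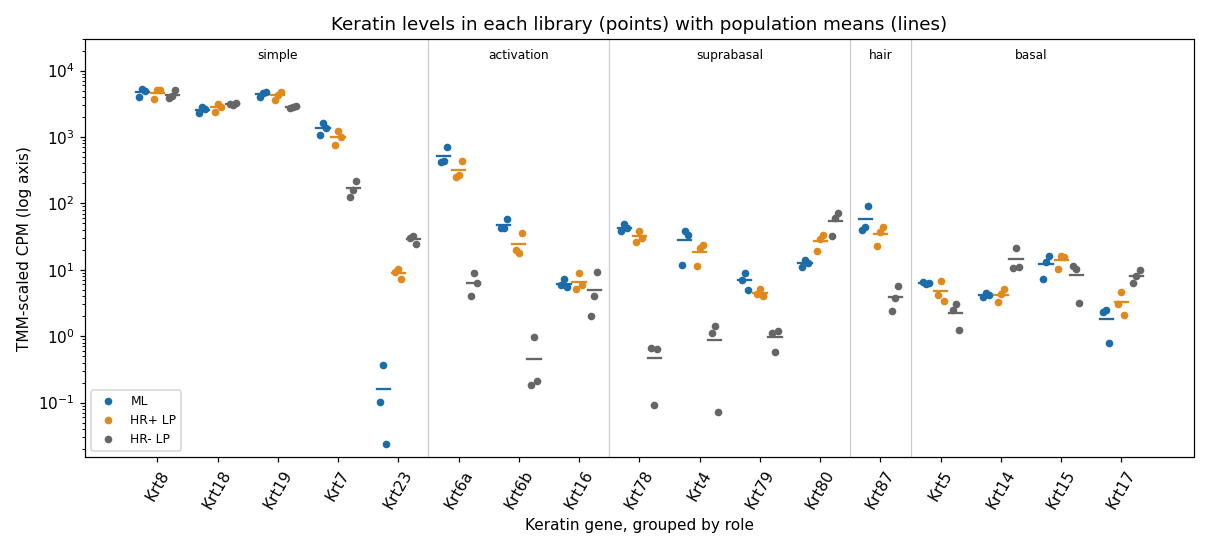
TMM-scaled CPM, on a log axis, of 17 keratins in each of the 9 libraries (points), with the mean of each population (lines). Krt8, Krt18 and Krt19 lie at 2299 CPM or more in every library, whereas Krt6a, Krt6b, Krt78 and Krt4 lie above 10 CPM in all ML and HR+ LP libraries and below 10 CPM in all HR- LP libraries, and Krt23 is lowest in ML and highest in HR- LP.

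The summed keratin transcripts made up 1.30%, 1.51% and 1.54% of the counts of ML libraries, 1.15%, 1.41% and 1.43% of HR+ LP libraries and 0.968%, 0.927% and 1.09% of HR- LP libraries. All libraries of ML and of HR+ LP lay above all of HR- LP, and ML and HR+ LP overlapped. The log2 ratio was 0.54 for ML against HR- LP and 0.41 for HR+ LP against HR- LP (two-sided exact permutation p = 0.1 each, the smallest that 3 against 3 libraries allow), and 0.13 for ML against HR+ LP (exact permutation p = 0.5). Type II counts per type I count averaged 0.975 ± 0.067 in ML, 0.862 ± 0.049 in HR+ LP and 0.757 ± 0.105 in HR- LP (SD, n = 3 each). All ML libraries lay above all others, but HR- LP replicate 3 (0.874) lay above HR+ LP replicate 1 (0.806). The exact permutation p of this ratio was 0.2 for HR+ LP against HR- LP, and 0.1 for ML against either. Without Krt8 and Krt18 the type II to type I ratio was 0.468 ± 0.047, 0.341 ± 0.038 and 0.082 ± 0.021 in ML, HR+ LP and HR- LP.

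Per length (TPM, computed from the counts and the deposited gene lengths), Krt7, Krt8, Krt18 and Krt19 together formed 96.1% of the keratin pool in ML, 97.2% in HR+ LP and 98.8% in HR- LP. Krt19, a small type I keratin of simple epithelia, was the keratin with the highest level in 3 of 3 ML and 3 of 3 HR+ LP libraries, at 36.0 ± 1.60% and 36.3 ± 1.64% of the pool, and in 0 of 3 HR- LP libraries, at 30.0 ± 1.35%. There Krt8 led in 2 libraries and Krt18 in 1. Krt18 formed 20.9 ± 0.816% of the pool in ML, 23.4 ± 1.24% in HR+ LP and 32.6 ± 1.99% in HR- LP. Krt7 formed 9.50 ± 0.922%, 7.36 ± 1.03% and 1.52 ± 0.304% in ML, HR+ LP and HR- LP. Krt6a, which formed 2.60 ± 0.682% in ML and 1.65 ± 0.412% in HR+ LP, was at 0.041 ± 0.016% in HR- LP (SD, n = 3 each).

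**Figure D2:**
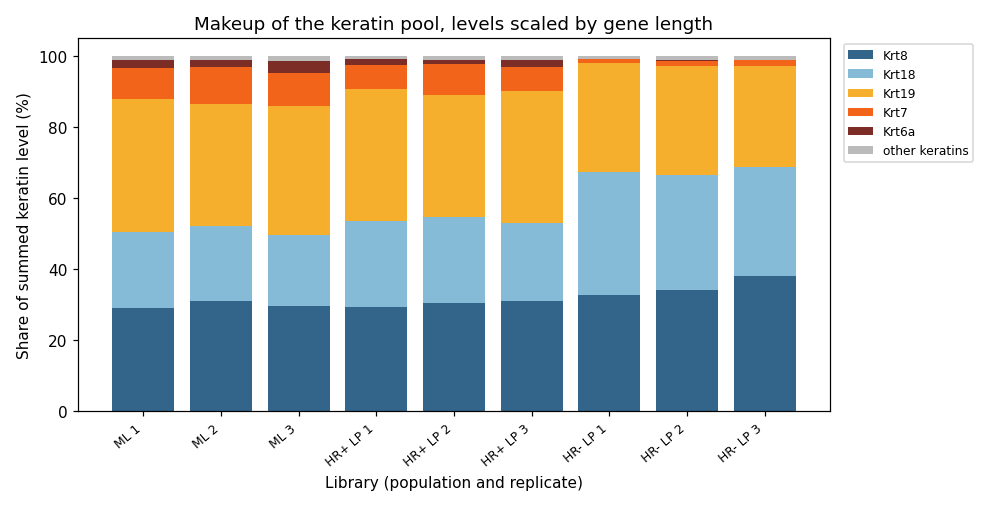
Share of the summed keratin level, per length, held by 5 keratins and by all others in each of the 9 libraries (stacked bars, percent). The Krt7 and Krt6a segments are wide in ML and HR+ LP and narrow in HR- LP, where the Krt18 segment is wider.

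Among the 5 tested simple epithelial keratins, Krt19 and Krt7 were higher and Krt23 was lower in ML and in HR+ LP than in HR- LP, and Krt8 and Krt18 did not pass the test. Krt8 (GeneID 16691, chr15:101996711-102004342 of mm10) had 3982, 5342 and 4993 CPM in ML, 3724, 5054 and 5157 CPM in HR+ LP and 3797, 4080 and 5128 CPM in HR- LP. Krt18 (GeneID 16668, chr15:102028216-102032026), the type I partner of Krt8 and the 1 type I gene in the type II cluster, had 2299, 2857 and 2612 CPM in ML, 2367, 3123 and 2856 CPM in HR+ LP and 3141, 3026 and 3224 CPM in HR- LP. Krt8 overlapped between all populations, and the Krt18 libraries of ML lay below those of HR- LP. Neither gene passed the test in any comparison: the log2 fold changes were 0.14 ± 0.18 (SE) for Krt8 and -0.27 ± 0.15 for Krt18 in ML against HR- LP, and 0.10 ± 0.18 and -0.17 ± 0.15 in HR+ LP against HR- LP. In the reference transcripts 26.9% of the 50-base windows of Krt8 also occur in the pseudogene Krt8-ps, and how the authors counted such reads is not given in the sources used here.

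Krt19 (GeneID 16669, chr11:100140810-100145926) had 3928, 4522 and 4672 CPM in ML, 3602, 4351 and 4737 CPM in HR+ LP and 2726, 2831 and 2932 CPM in HR- LP. All libraries of ML and of HR+ LP lay above those of HR- LP. The log2 fold change was 0.63 ± 0.14 in ML (adjusted p = 0.00456) and 0.58 ± 0.14 in HR+ LP (adjusted p = 0.0116), each against HR- LP. Without HR+ LP replicate 3 the second call was lost (0.49, adjusted p = 0.0526, range over all settings 0.00188 to 0.0526).

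Krt7 (GeneID 110310, chr15:101412403-101427806), a type II keratin of glandular and ductal simple epithelia, had 1059, 1604 and 1370 CPM in ML, 754, 1248 and 995 CPM in HR+ LP and 127, 159 and 219 CPM in HR- LP. The HR- LP libraries lay below all others with a wide gap, and ML and HR+ LP overlapped. Krt7 was higher by 3.00 ± 0.26 on the log2 scale in ML (adjusted p = 4.45e-06) and by 2.57 ± 0.26 in HR+ LP (adjusted p = 4.18e-05) than in HR- LP.

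Krt23 (GeneID 94179, chr11:99477973-99493120), a type I keratin of simple and glandular epithelia, ran the other way. It had 0.1005, 0.362 and 0.024 CPM in ML, 9.27, 10.1 and 7.15 CPM in HR+ LP and 29.6, 32.7 and 24.7 CPM in HR- LP. No 2 populations overlapped, and Krt23 was called lower in every comparison. Its log2 fold change was -7.38 ± 0.54 in ML against HR- LP (adjusted p = 1.16e-06), -5.67 ± 0.52 in ML against HR+ LP (adjusted p = 2.51e-05) and -1.71 ± 0.38 in HR+ LP against HR- LP (adjusted p = 0.00644). By level per length it ranked 6 among the keratins in HR- LP and 28 in ML.

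The sequences upstream of start sites were taken from RefSeq for GRCm38.p6, the assembly behind mm10, which held 36 of the 54 members. Windows ran from 250 bases before to 50 after each start, and both strands were searched. TATAAA was found for 19 of the 36 keratins (52.8%), against 15.7% of 27025 genes, and the GC box GGGCGG bound by SP1 family factors for 2 (5.56%), against 38.2%. The AP-2 motif GCCNNNGGC was found for 7 (19.4%, against 18.5%), the AP-1 motif TGACTCA for 1 (2.78%, against 5.95%), and the forkhead motif TGTTTAC and the estrogen response element for 0 (against 4.05% and 0.0148%). ATAAAA, a looser TATA-like run added after the printed windows had been seen, was found for 22 (61.1%, against 21.0%) and can overlap TATAAA. Shown are the 250 bases before the start of Krt7 and Krt78, which were lowest in HR- LP, and of Krt23, which was highest there. Capitals mark the matches to GGGCGG, GCCNNNGGC and ATAAAA on either strand. The windows are chr15:101412153-101412402 on the plus strand for Krt7, chr15:101954288-101954537 on the minus strand for Krt78, and chr11:99493121-99493370 on the minus strand for Krt23. The start used for Krt78 lies inside its annotated span, not at the end of it.
Krt7: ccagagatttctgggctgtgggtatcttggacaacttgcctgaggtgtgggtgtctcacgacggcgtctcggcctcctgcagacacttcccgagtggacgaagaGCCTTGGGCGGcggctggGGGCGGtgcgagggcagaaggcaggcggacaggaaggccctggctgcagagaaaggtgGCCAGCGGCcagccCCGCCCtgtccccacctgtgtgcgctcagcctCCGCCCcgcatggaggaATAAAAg
Krt78: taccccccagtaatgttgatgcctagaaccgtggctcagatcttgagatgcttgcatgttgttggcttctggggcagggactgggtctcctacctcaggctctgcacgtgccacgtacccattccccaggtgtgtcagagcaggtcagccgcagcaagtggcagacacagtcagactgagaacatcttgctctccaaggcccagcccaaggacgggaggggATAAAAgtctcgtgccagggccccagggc
Krt23: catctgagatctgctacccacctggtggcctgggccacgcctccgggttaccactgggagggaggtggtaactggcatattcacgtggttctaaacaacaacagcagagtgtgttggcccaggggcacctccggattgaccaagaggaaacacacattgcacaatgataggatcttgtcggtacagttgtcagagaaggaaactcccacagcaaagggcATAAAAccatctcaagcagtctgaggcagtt
Krt7 held 4 matches to the GC box and 2 to the AP-2 motif, and the other windows held neither. A match is a run of letters and was not tested as a binding site.

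The activation keratins Krt6a, Krt6b and Krt16 are induced in wounded and hyperproliferative epidermis, and Krt6a has also served as a marker of early luminal cells in the mouse mammary gland. Of these 3, Krt6a and Krt6b were higher in HR+ LP and in ML than in HR- LP, and Krt16 was not called. Krt6a (GeneID 16687, chr15:101689928-101694305) had 416, 442 and 709 CPM in ML, 247, 268 and 439 CPM in HR+ LP and 3.98, 8.91 and 6.26 CPM in HR- LP. Krt6b (GeneID 16688, chr15:101676023-101680293) had 42.6, 42.0 and 57.6 CPM in ML, 20.2, 18.1 and 36.0 CPM in HR+ LP and 0.182, 0.972 and 0.215 CPM in HR- LP. For both genes every HR- LP library lay far below every other library. In ML and HR+ LP against HR- LP, the log2 fold changes were 6.35 ± 0.40 (adjusted p = 4.22e-07) and 5.63 ± 0.38 (adjusted p = 4.43e-06) for Krt6a, and 6.48 ± 0.56 (adjusted p = 3.81e-06) and 5.54 ± 0.54 (adjusted p = 3.37e-05) for Krt6b. The genes are near copies: 40.2% of the 50-base windows of Krt6a occur in Krt6b and 44.5% of those of Krt6b in Krt6a, so the split between them is uncertain. Krt16, a type I keratin with which Krt6 chains assemble, had 5.79, 7.32 and 5.51 CPM in ML, 5.09, 8.96 and 5.89 CPM in HR+ LP and 2.02, 3.98 and 9.12 CPM in HR- LP, and the populations overlapped. Its log2 fold change against HR- LP was 0.31 ± 0.47 in ML and 0.41 ± 0.47 in HR+ LP. Without HR- LP replicate 3, in which it was highest, it was called higher in both (1.04, adjusted p = 0.0473, range over settings 0.0473 to 0.91, and 1.14, adjusted p = 0.0458, range 0.0458 to 0.955).

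The suprabasal and mucosal keratins are made in the upper layers of stratified epithelia. Of 13 members 8 were tested, and 4 were higher and 1 was lower in ML and likewise in HR+ LP than in HR- LP. Krt78 (GeneID 332131, chr15:101946001-101996624) had 38.8, 48.5 and 41.9 CPM in ML, 26.6, 38.3 and 30.3 CPM in HR+ LP and 0.666, 0.092 and 0.644 CPM in HR- LP. Krt4 (GeneID 16682, chr15:101918535-101924735), a type II keratin of mucosal epithelia, had 11.99, 38.8 and 32.9 CPM in ML, 11.2, 21.2 and 23.6 CPM in HR+ LP and 1.11, 1.42 and 0.072 CPM in HR- LP. Krt79 (GeneID 223917, chr15:101929332-101940324), known in mouse skin from the hair canal and sebaceous duct, had 6.97, 8.94 and 4.90 CPM in ML, 4.38, 5.12 and 4.06 CPM in HR+ LP and 1.11, 0.583 and 1.18 CPM in HR- LP. For all 3 genes the HR- LP libraries lay below all others. The log2 fold changes in ML and in HR+ LP against HR- LP were 6.73 ± 0.53 and 6.28 ± 0.52 for Krt78, 4.88 ± 0.69 and 4.30 ± 0.67 for Krt4, and 2.88 ± 0.39 and 2.26 ± 0.38 for Krt79, with adjusted p between 2.08e-06 and 0.00133. The annotated span of Krt78 ends next to Krt8, and the levels of Krt8 overlapped between the populations.

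Krt77 (GeneID 406220, chr15:101858731-101869706), known from sweat gland ducts in human skin, had 1.04, 2.51 and 1.15 CPM in ML, 1.08, 1.90 and 0.515 CPM in HR+ LP and no count in the 3 HR- LP libraries. Against a floor of 3 counts over the HR- LP group it was at least 91.5-fold higher in ML, with 198 counts, and at least 67.9-fold higher in HR+ LP, with 282 counts (adjusted p = 0.000447 and 0.00123). Krt80 (GeneID 74127, chr15:101348315-101370162), a type II keratin placed near desmosomes in human epithelial cells, was the member of the group that was lower. It had 11.2, 14.1 and 12.5 CPM in ML, 19.5, 28.8 and 33.1 CPM in HR+ LP and 32.8, 59.5 and 71.4 CPM in HR- LP. ML lay below both other populations, and HR+ LP replicate 3 overlapped HR- LP replicate 1. The log2 fold change was -2.11 ± 0.29 in ML against HR- LP (adjusted p = 0.00013), -1.11 ± 0.28 in ML against HR+ LP (adjusted p = 0.0369) and -1.01 ± 0.28 in HR+ LP against HR- LP (adjusted p = 0.0186). Without HR- LP replicate 3 the last was -0.77 (adjusted p = 0.0624, range over settings 0.00177 to 0.0759), and that call was also lost without HR+ LP replicate 1 or 2 (0.0759 and 0.0535) or HR- LP replicate 2 (0.0549). Krt1, Krt10 and Krt13, the other tested members, were not called in any comparison of the main fit and stayed at or below 5.12 CPM in every library. Without HR- LP replicate 3, Krt1 was called higher in ML than in HR- LP (1.97, adjusted p = 0.0467, range over settings 0.0467 to 0.989). With DESeq2, Krt13 was called higher in ML than in HR- LP (1.89, adjusted p = 0.0486, range over settings 0.0486 to 0.368).

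Of 19 hair shaft and nail keratins 8 were tested, and only Krt87 averaged over 10 CPM in any population. Krt87 (GeneID 406219, chr15:101431490-101438804), the neighbour of Krt7, had 39.2, 44.4 and 90.0 CPM in ML, 22.8, 37.0 and 44.1 CPM in HR+ LP and 2.40, 3.70 and 5.76 CPM in HR- LP. Every ML and HR+ LP library lay above those of HR- LP, and ML replicate 3 was the highest of all. The log2 fold change against HR- LP was 3.89 ± 0.42 in ML (adjusted p = 2.4e-05) and 3.15 ± 0.41 in HR+ LP (adjusted p = 0.000249). Of the 50-base windows of Krt87, 36.9% occur in other genes, most often in the predicted gene Gm49425. Krt36 had 0.904, 1.02 and 0.447 CPM in ML, 0.763, 0 and 0.471 CPM in HR+ LP, and 0, 0.010 and 0 CPM in HR- LP, where 1 read was counted. It was called higher in ML (adjusted p = 0.0114) and in HR+ LP (adjusted p = 0.0306), with ratios of summed counts of 138 (95% counting interval 24.2 to 5508) and 82.7 (14.6 to 3294). Krt83 had 0.033, 0.447 and 0.730 CPM in ML, 0.267, 0.233 and 0.186 CPM in HR+ LP and 0.020, 0.010 and 0.036 CPM in HR- LP. It was called higher in ML than in HR- LP (adjusted p = 0.0275, ratio 25.9, counting interval 8.41 to 130), although ML replicate 1 overlapped HR- LP. The HR+ LP call of Krt36 held in 8 of 16 settings that tested the gene. It was lost without any 1 of ML replicate 2 (adjusted p = 0.0582), HR+ LP replicates 1 and 3 (0.0997 and 0.0673) or HR- LP replicates 1, 2 and 3 (0.0714, 0.0772 and 0.0677). The call of Krt83 held in 6 of 16, and was lost without any 1 of ML replicates 2 and 3 (adjusted p = 0.0882 and 0.126), HR+ LP replicates 1 and 3 (0.059 and 0.056) or HR- LP replicates 1, 2 and 3 (0.0698, 0.0858 and 0.0527). Krt31, Krt81, Krt86 and Krt88 were not called and stayed at or below 1.18 CPM. In the absence of HR- LP replicate 3, which held all 21 HR- LP counts of Krt31, that gene was called higher in ML (adjusted p = 0.000629, range over settings 0.000629 to 0.38) and in HR+ LP (adjusted p = 0.00184, range 0.00184 to 0.597). With limma voom on all 9 libraries Krt31 was also called higher in both (adjusted p = 0.00934 in ML and 0.0205 in HR+ LP). Krt42, also in this group, was not called and reached 2.76 CPM.

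The basal keratins Krt5, Krt14, Krt15 and Krt17, which belong to the basal layer and the myoepithelium, were at low levels in all 9 libraries, none above 21.1 CPM. Krt5 (GeneID 110308, chr15:101707069-101712905), type II, had 6.63, 6.08 and 6.36 CPM in ML, 4.15, 6.74 and 3.41 CPM in HR+ LP and 2.44, 3.05 and 1.25 CPM in HR- LP. Krt14 (GeneID 16664, chr11:100203162-100207510), its type I partner, had 3.85, 4.53 and 4.14 CPM in ML, 3.27, 4.28 and 5.13 CPM in HR+ LP and 10.8, 21.1 and 11.1 CPM in HR- LP. The partners thus ran opposite ways: HR- LP was lowest for Krt5 and highest for Krt14, with no overlap with the other populations for either gene. Krt5 was higher in ML than in HR- LP (1.48 ± 0.39, adjusted p = 0.00954), and its 1.07 ± 0.39 in HR+ LP missed the threshold (adjusted p = 0.0587), which it passed without HR- LP replicate 2 (adjusted p = 0.0374). Krt14 was lower in ML (-1.78 ± 0.32, adjusted p = 0.000872) and in HR+ LP (-1.76 ± 0.31, adjusted p = 0.00177) than in HR- LP. Krt17, a type I keratin of basal and stressed epithelium, had 2.28, 2.45 and 0.801 CPM in ML, 3.04, 4.56 and 2.08 CPM in HR+ LP and 6.38, 8.05 and 9.77 CPM in HR- LP. It was highest in all HR- LP libraries, with log2 fold changes of -2.13 ± 0.46 in ML (adjusted p = 0.00327) and -1.32 ± 0.45 in HR+ LP (adjusted p = 0.046). Without HR- LP replicate 3 the call in HR+ LP was lost (-1.16, adjusted p = 0.104, range over settings 0.00583 to 0.151), as it was without ML replicate 1 (0.0553), HR+ LP replicate 1 or 3 (0.128 and 0.151) or HR- LP replicate 2 (0.0824). Krt15, a basal type I keratin, had 7.20, 12.9 and 16.3 CPM in ML, 10.2, 16.2 and 15.8 CPM in HR+ LP and 11.3, 10.4 and 3.11 CPM in HR- LP, overlapped between populations and was not called.

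Of the 4 basal keratins 0 were higher and 2 lower in HR+ LP, 1 was higher and 2 were lower in ML against HR- LP, and none was called between ML and HR+ LP in any setting. Beside these levels, 14 basal and myoepithelial marker genes other than keratins summed to 315 to 334 CPM in ML, 285 to 297 CPM in HR+ LP and 222 to 277 CPM in HR- LP. The contractile markers Acta2 and Myh11 lay between 1.22 and 14.1 CPM and Trp63, the basal transcription factor, between 0.358 and 1.66 CPM over all libraries. Of these 14 genes, 1 was higher and 2 lower in HR+ LP and 2 higher and 4 lower in ML, against HR- LP, and 0 higher and 2 lower in ML against HR+ LP. Most of the summed level came from Cav1 (caveolin 1) and Itgb4 (integrin beta 4). Cav1 averaged 147 ± 7.04 CPM in ML, 99.4 ± 7.87 CPM in HR+ LP and 4.73 ± 2.22 CPM in HR- LP, and was called higher in both populations than in HR- LP. Itgb4 averaged 131 ± 9.88, 120 ± 9.55 and 94.99 ± 20.5 CPM in the same order, and was called higher in ML. The 12 genes without these summed to 36.4 to 52.7 CPM in ML, 66.1 to 75.5 CPM in HR+ LP and 133 to 154 CPM in HR- LP. Tagln, another contractile marker, was lower in both populations than in HR- LP, as Krt14 and Krt17 were, at 9.65 ± 1.54 CPM in ML, 12.5 ± 1.59 CPM in HR+ LP and 22.1 ± 5.13 CPM in HR- LP. So was Lamb3, a laminin chain, at 10.02 ± 0.52, 32.4 ± 2.03 and 81.8 ± 3.96 CPM in the same order (SD, n = 3 each). Without Lamb3 as well, the other 11 genes summed to 25.9 to 42.8 CPM in ML, 31.3 to 44.5 CPM in HR+ LP and 47.1 to 73.7 CPM in HR- LP. ML and HR+ LP then overlapped, so much of the step between them in the sum of 12 genes was Lamb3. Whether a few basal cells took part in the Krt14 and Krt17 differences was not tested.

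All 26 type II genes lie on chromosome 15, and several of the higher ones adjoin. Krt77, Krt76, Krt4, Krt79 and Krt78 follow each other with no other annotated gene between them. Of these, Krt76 had too few counts for a test, and the other 4 were higher in ML and in HR+ LP than in HR- LP. Krt8 and Krt18, next in order, were not called. Krt7 and Krt87 adjoin, as do Krt6b, Krt6a and Krt5, of which Krt5 was called in ML only. Krt83, called in ML, stands between a member that was not called and one with too few counts. Krt80 at the far end of the cluster was lower. Whether calls depend on position was not tested. On chromosome 11 the neighbours Krt14, Krt16 and Krt17 included members that were lower and a member that was not called.

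**Figure D3:**
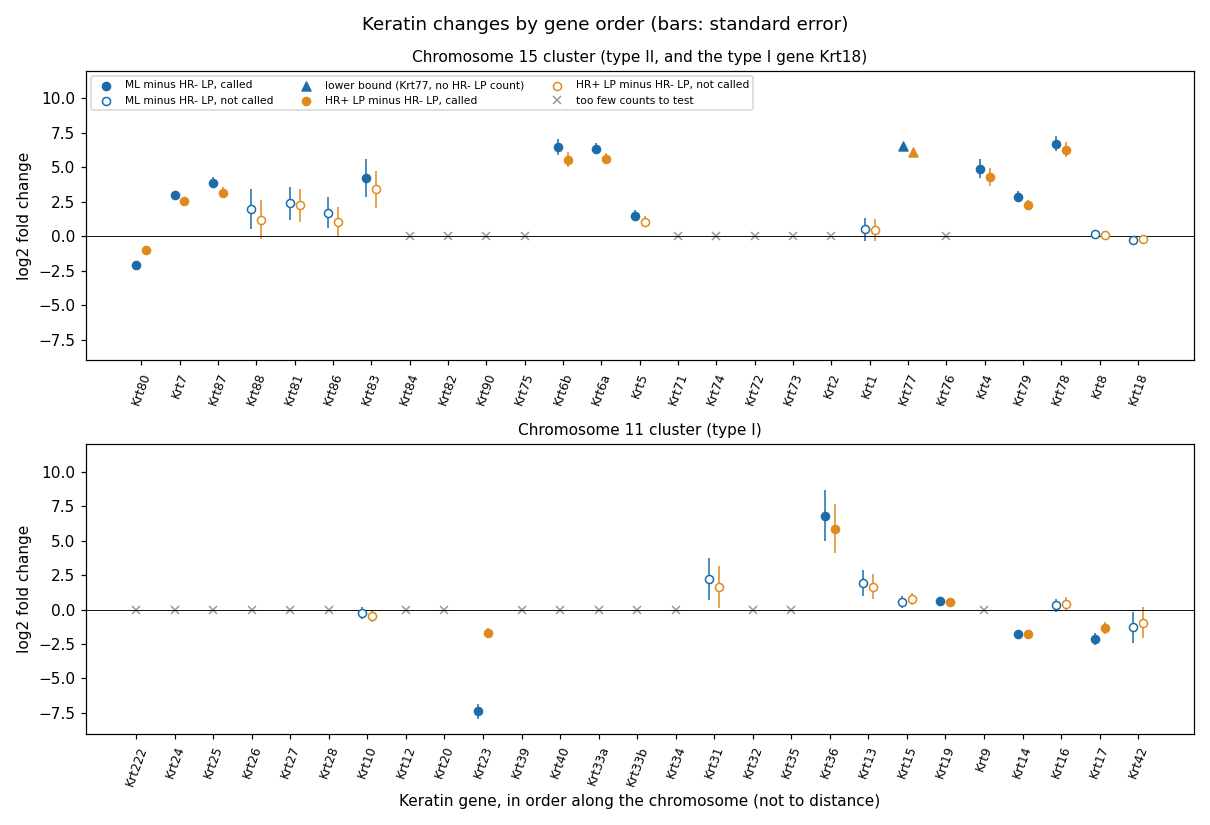
Log2 fold change (points, with SE bars) of each tested keratin in ML and in HR+ LP against HR- LP, in gene order along chromosomes 15 and 11, with filled points for calls and crosses for members with too few counts. Krt7 and Krt87, Krt6b and Krt6a, and the tested genes from Krt77 to Krt78 lie above 0 and are called against HR- LP in both populations, Krt80 and Krt23 lie below 0, and Krt77 is drawn at its lower bound. The values of Krt36 and Krt83 rest on 1 and 3 HR- LP counts.

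For 25 of the 28 tested keratins the mean level in HR+ LP stood between the other means, as it did for 73.7% of all tested genes. ML was highest and HR- LP lowest for 19 of them, and the reverse held for 6. The share of all tested genes in each of these orders was not computed, so the 19 and 6 are a description only. Every library of one population lay above every library of the other for 5 of 28 keratins in ML against HR+ LP, where 27% of all tested genes did so. The counts were 16 of 28 for HR+ LP against HR- LP, beside 43.9% of all genes, and 19 of 28 for ML against HR- LP, beside 53.1%.

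Deviations from the group means across genes were weakly correlated between same-numbered libraries of ML and HR+ LP (0.183, 0.121 and 0.189). Between HR+ LP and HR- LP the correlations were 0.133, 0.0389 and 0.147. Libraries with different numbers were not compared in this way. A replicate block changed what was called between ML and HR+ LP. With the block and the 6 libraries of these populations alone, 6 keratins were higher in ML, where the fit without a block called 0. These were Krt6a (0.73, adjusted p = 7.13e-06), Krt6b (0.99, adjusted p = 9.9e-05), Krt7 (0.44, adjusted p = 0.000222), Krt78 (0.46, adjusted p = 0.00285), Krt87 (0.70, adjusted p = 0.0031) and Krt4 (0.50, adjusted p = 0.0278). The same genes had log2 fold changes between 0.43 and 0.94 without the block, and adjusted p between 0.344 and 0.842. Over all settings their adjusted p reached 0.767 to 1. With the block and all 9 libraries Krt87 alone was called higher (0.69, adjusted p = 0.0266).  The background moved as well: the blocked fit of 6 libraries called 1422 genes higher and 2182 lower (9.2% and 14.1%), and the blocked fit of 9 libraries called 0.446% higher and 7.88% lower, where the fit without a block called 15 and 1066. Krt80 was lower in both blocked fits (-1.08, adjusted p = 0.000202, with 6 libraries, and -1.07, adjusted p = 0.00408, with 9). In the fits without a block its call was lost when any 1 of ML replicates 1, 2 and 3, HR+ LP replicates 2 and 3 or HR- LP replicate 2 was left out (adjusted p between 0.0566 and 0.156).

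**Figure D4:**
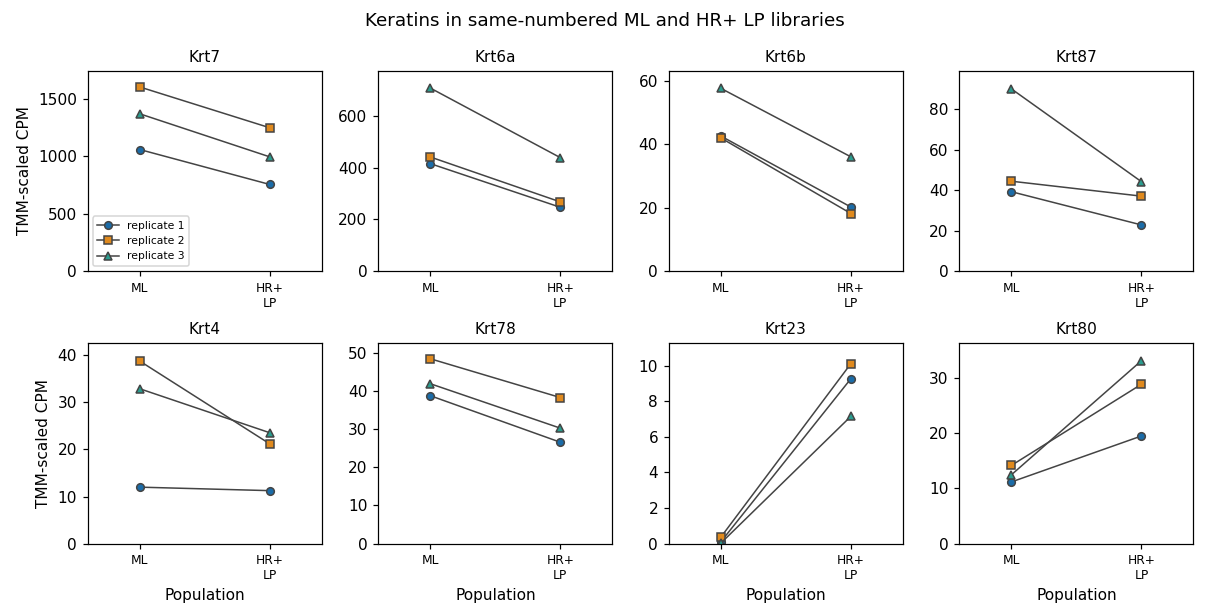
TMM-scaled CPM of 8 keratins in ML and HR+ LP, with lines joining libraries of the same replicate number. Krt7, Krt6a, Krt6b, Krt87, Krt4 and Krt78 are higher in ML in 3 of 3 pairs, and Krt23 and Krt80 are lower in ML in 3 of 3 pairs, a pattern for which the blocked fit selects and which 53.1% of all tested genes show in one direction or the other.

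Genes that work with keratins were taken from lists of general knowledge. Their counts, and those of the marker lists, stand beside 17.2% higher and 12.8% lower over all tested genes in HR+ LP against HR- LP, 23.3% and 21.3% in ML against HR- LP, and 0.0943% and 6.7% in ML against HR+ LP. Between ML and HR+ LP they come from the fit without a block. With the block and only these groups, which called 9.2% higher and 14.1% lower, they were 3 higher and 6 lower for linkers and plakins, 0 and 4 for filament partners, 2 and 5 for luminal markers and 4 and 1 for fibroblast markers. Of 12 linkers and plakins, which tie keratin filaments to desmosomes, hemidesmosomes and other filaments, 3 were higher and 3 lower in HR+ LP than in HR- LP, and 4 were higher and 5 lower in ML. In ML against HR+ LP 0 were higher and 2 lower. Plec, the broad cytolinker plectin, averaged 1130 ± 356 CPM in ML, 819 ± 245 CPM in HR+ LP and 247 ± 120 CPM in HR- LP. Its log2 fold change against HR- LP was 2.19 ± 0.39 in ML (adjusted p = 0.000814) and 1.73 ± 0.38 in HR+ LP (adjusted p = 0.00602). Evpl (envoplakin) was higher by 1.52 ± 0.15 in ML and by 1.25 ± 0.14 in HR+ LP, and Dst (dystonin) by 1.49 ± 0.34 and 1.22 ± 0.33. Pkp1, a desmosomal plaque protein, averaged 29.3 ± 2.72 CPM in ML, 128 ± 17.7 CPM in HR+ LP and 304 ± 63.0 CPM in HR- LP, and was lower in all comparisons. Its log2 fold change was -3.37 ± 0.19 in ML against HR- LP (adjusted p = 1.99e-07), -2.13 ± 0.18 in ML against HR+ LP (adjusted p = 1.47e-05) and -1.24 ± 0.18 in HR+ LP against HR- LP (adjusted p = 0.000418). Pkp4, a related plaque protein, was called lower in all 3 comparisons.

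Cornified envelope genes, which build the protein shell of squamous cells, were partly present. Of 12 genes 6 were tested, and 4 were higher and 0 lower in HR+ LP, and 5 higher and 0 lower in ML, each against HR- LP, and 0 of 6 were called between ML and HR+ LP by edgeR without a replicate block, with 0 at an unadjusted p below 0.05. With the block and only these groups 1 of 6 was higher in ML, Sprr1a (0.73, adjusted p = 2.41e-05), and with the block and all 9 libraries 0 were called (Sprr1a adjusted p = 0.374). Sprr1a, a cross-linked envelope precursor, had 84.9, 124 and 125 CPM in ML, 55.5, 72.8 and 72.7 CPM in HR+ LP and 0.525, 4.71 and 2.54 CPM in HR- LP. All HR- LP libraries lay below the others, and the log2 fold change was 5.38 ± 0.58 in ML (adjusted p = 2.09e-05) and 4.65 ± 0.56 in HR+ LP (adjusted p = 0.000143). Ivl, Rptn and Lor were called at levels no higher than 5.23 CPM, and with means of 0.017, 0.081 and 0 CPM in HR- LP they could be called only higher there. The keratinocyte markers other than keratins gave no such picture: their 11 genes summed to 185 to 263 CPM in ML, 338 to 611 CPM in HR+ LP and 820 to 1303 CPM in HR- LP, most of it from Lypd3 and Serpinb5. Krtdap was at 0 in every library, and Flg, Dsg1a, Dsg1b and Dsg3 stayed at or below 0.311 CPM. Of the 6 tested 1 was higher and 3 were lower in HR+ LP and likewise in ML, against HR- LP, and 0 were higher and 2 lower in ML against HR+ LP.

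Among 15 other intermediate filament genes 9 were tested, and 1 was higher and 4 were lower in HR+ LP and likewise in ML, against HR- LP. In ML against HR+ LP 0 were higher and 1, Nes, was lower. Vim, the vimentin gene of mesenchymal cells, averaged 3.24 ± 0.145 CPM in ML, 3.21 ± 0.932 CPM in HR+ LP and 10.4 ± 2.51 CPM in HR- LP, with log2 fold changes of -1.68 ± 0.30 in ML (adjusted p = 0.000958) and -1.69 ± 0.30 in HR+ LP (adjusted p = 0.00174). Nes, the nestin gene, averaged 0.346 ± 0.097, 3.23 ± 1.53 and 11.98 ± 4.71 CPM in ML, HR+ LP and HR- LP, and was called lower in every comparison. Of the lamins, which line the nucleus, Lmna and Lmnb1 were lower and Lmnb2 was higher in both populations than in HR- LP. Of 12 filament partners 10 were tested, and 0 were higher and 3 lower in HR+ LP, 0 higher and 4 lower in ML against HR- LP, and 0 higher and 1 lower in ML against HR+ LP. Hspb1, a small heat shock protein that binds keratin filaments, averaged 127 ± 11.1 CPM in ML, 263 ± 70.8 CPM in HR+ LP and 492 ± 87.4 CPM in HR- LP. Sfn, which encodes the 14-3-3 sigma protein, averaged 568 ± 61.2, 900 ± 202 and 1624 ± 187 CPM in the same order (SD, n = 3 each).

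Markers of other cell types were summed per library as well. The 10 luminal markers other than keratins summed to 6116 to 8285 CPM in ML, 6248 to 8491 CPM in HR+ LP and 8365 to 8863 CPM in HR- LP, with 2 higher and 5 lower in HR+ LP and 3 higher and 5 lower in ML, against HR- LP, and 0 higher and 1 lower in ML against HR+ LP. The 7 immune markers summed to 2.04 CPM or less in every library, and 0 of the 4 tested were called in any comparison by edgeR, with 0 at an unadjusted p below 0.05. The 8 fibroblast markers summed to 107 to 319 CPM in ML, 61.4 to 268 CPM in HR+ LP and 75.6 to 127 CPM in HR- LP. Most of the level in ML and HR+ LP was Dcn (decorin), and without it the 7 others summed to 18.7 to 34.7 CPM in ML, 11.4 to 23.8 CPM in HR+ LP and 69.1 to 117 CPM in HR- LP. Dcn was higher and Col1a2 and Col3a1 were lower in ML and in HR+ LP than in HR- LP, and over the list 1 was higher and 6 lower in HR+ LP, 1 higher and 3 lower in ML, and 0 higher and 1 lower between ML and HR+ LP. The 6 endothelial markers summed to 59.5 to 80.7 CPM in ML, 40.6 to 63.0 CPM in HR+ LP and 6.69 to 12.2 CPM in HR- LP, nearly all of it Vwf, the 1 gene of this list that was called against HR- LP. Pecam1, another marker of this list, lay between 1.77 and 3.83 CPM. The 5 melanocyte and Schwann markers reached 365 to 447 CPM in HR- LP through Sox10, which was lower in every comparison, and Mlana was at 0. Sox10 and Lypd3 thus moved with Krt23, and Vwf and Dcn with the higher type II keratins. Their part in the keratin results was not tested.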

How the data were processed

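DNase-treated total RNA (miRNeasy kit) was made into libraries with a TruSeq RNA v2 kit, which does not mark strand, per the labels' protocols. The authors deposited raw read counts per gene, made with featureCounts on mm10 per the submitters' processing notes; the aligner, the annotation and the counting of multiply matching reads are not given in the sources used here. Per-sample files and the joint table differed in 0 cells. Of 27179 NCBI gene IDs, 25275 (93.0%) matched a RefSeq symbol, and unmatched IDs held 0.955% to 1.67% of counts. Replicates differed beyond sampling noise (chi-square per degree of freedom 63.3 to 216).

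Genes passing filterByExpr by group (15910) were tested with edgeR's quasi-likelihood F test on all 9 libraries with TMM scaling, with Benjamini-Hochberg adjustment over all tested genes and calls below 0.05. SE is the absolute log2 fold change over the square root of F. TPM used the deposited gene lengths. Values for single libraries cover no technical repeat, and counting intervals and floors of 3 counts cover counting error only. Sequence sharing was measured in 50-base windows of GENCODE transcripts. Scripts were tested on simulated data. Versions were Python 3.11.15, matplotlib 3.10.9, scipy 1.17.1, DESeq2 1.42.0, limma 3.58.1, edgeR 4.0.16 and R 4.3.3.

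Every tested keratin is named. Values per library are given for members averaging at least 10 CPM in a population or called with an absolute log2 fold change over 1, and from other lists up to 4 called genes with the smallest p, with others named for their level. The members, lists, roles and tests were chosen with earlier results of these data known. Alternatives were another scaling, other filters, DESeq2, limma voom, fewer libraries and a replicate block. Same-numbered libraries had correlations of deviations across genes of 0.183, 0.121 and 0.189 between ML and HR+ LP, 0.133, 0.0389 and 0.147 between HR+ LP and HR- LP, and 0.0526, 0.0254 and 0.0849 between ML and HR- LP. The first were all over 0.1, as were 0.133 and 0.147 among the second. The labels give no pairing, so the main fit had no block and its counts between ML and HR+ LP ignore any pairing. Fits with the block are given as alternatives.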

Additional observations from a re-analysis of the deposited data

How the results depend on the processing

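Over 18 other settings, 8 of the 10 keratins called higher and 2 of the 4 called lower in HR+ LP against HR- LP stayed called wherever tested, as did 11 of 12 and 4 of 4 in ML against HR- LP and 1 of 2 lower in ML against HR+ LP. The exceptions were Krt36, Krt19, Krt17 and Krt80, Krt83, and Krt80. Other settings mattered most between ML and HR+ LP. Called higher there, against 15 genes and 0 keratins, were 93 genes with DESeq2, 50 and 1 keratin with limma voom, 216 with only these groups, 71 and 1 keratin with the replicate block, and 1422 and 6 keratins with the replicate block in only these groups, which called 2182 genes lower. Scaling by library totals, added after seeing the data, called 30 genes higher. Keratins lower, 2 in all, were 1 with DESeq2 size factors and 1 with limma voom. Uncalled log2 fold changes near 0 changed sign between ML and HR+ LP: Krt14 was 0.019 with DESeq2 size factors, 0.019 with DESeq2, 0.039 with limma voom, 0.0055 with the replicate block in only these groups and 0.041 with library totals, Krt16 was 0.0027 and Krt42 0.19 with limma voom, Krt42 0.31 and Krt81 -0.17 with the replicate block, and Krt81 -0.038 with the block in only these groups. Krt10 in ML against HR- LP was 0.11 with limma voom. The block changed no keratin call against HR- LP other than those of Krt36 (adjusted p = 0.072), Krt5 (0.0348) and Krt83 (0.0693). Against HR- LP, DESeq2 also called Krt83 (adjusted p = 0.0467) and Krt5 (0.0291) higher in HR+ LP, and Krt13 (0.0486) higher in ML. There limma voom also called Krt31 higher in HR+ LP (adjusted p = 0.0205) and in ML (0.00934). It did not call Krt36 in HR+ LP (0.203) or Krt83 in ML (0.0879). Without Krt8 and Krt18 the log2 ratio of the keratin share was 0.97 for HR+ LP and 1.20 for ML against HR- LP, and that of type II to type I was 2.08, 2.53 and, between ML and HR+ LP, 0.46.

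Leaving out each library in turn gave ranges. In HR+ LP against HR- LP, keratins lower ranged from 2 to 4 (2 without HR- LP replicate 2 or 3 or HR+ LP replicate 1), genes lower from 1211 to 2290 (1211 and 1329 without HR+ LP replicates 2 and 1), Krt10 from -0.75 to 0.014, Krt42 from -1.53 to 0.14 and Krt1 from -0.059 to 1.92. In ML against HR+ LP, genes higher ranged from 4 to 63 (22 to 63 without an HR- LP library, 4 to 8 without another), keratins lower from 1 to 2, Krt15 from -0.48 to 0.058, Krt19 from -0.056 to 0.14, Krt14 from -0.17 to 0.15, Krt16 from -0.26 to 0.18, Krt42 from -0.80 to 0.038, Krt81 from -0.86 to 0.61, Krt1 from -0.16 to 0.23, Krt77 from -0.075 to 0.98 and Krt8 from -0.10 to 0.15. In ML against HR- LP, Krt10 ranged from -0.50 to 0.26, Krt16 from -0.063 to 1.04 and Krt1 from -0.014 to 1.97. The cause was not tested. Depth limits the members below 1 CPM, whose calls rest on few reads.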
